A study of Solanum lycopersicum with 12 samples.

Results

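The chromosome 8 block is a run of 50 neighbouring tomato genes, Solyc08g077290 to Solyc08g077990 in the order of their identifiers, taken from 17887 genes measured in the flesh of red ripe fruits. The block was chosen by the difference between the parental lines Q and G in these same fruits, as a stretch in which many genes passed the test of that contrast. Values and calls of Q against G in the block therefore only describe how it was chosen, and support nothing further. The measures that the choice did not use are the contrast between the hybrids and the departure of the hybrids from the middle of their parents.

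The hybrids are QxG, the cross of Q with G, and GxQ, its reciprocal. The parents are Q, the line Querubín FCA, and G, the line Gema FCA, which are recombinant inbred lines from a cross of the cultivated tomato Solanum lycopersicum with its wild relative Solanum pimpinellifolium. Each genotype had 3 libraries from the fruit mesocarp, the fleshy wall of the fruit, and each library was 1 fruit of plants grown in a single greenhouse. The labels do not say whether the fruits came from separate plants, so p-values measure the spread between these fruits only.

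A recombinant inbred line carries stretches of chromosome from both of the original parents of the cross, fixed by repeated selfing. A pair of such lines can hold different alleles along a whole stretch and the same alleles along the next, and genes close together on a stretch tend to be inherited together. In the hybrid of the lines each gene has 1 copy from either line, apart from genes of plastids and mitochondria, which usually come from the seed parent. Reciprocal hybrids thus have the same nuclear alleles at every position.

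Libraries held 15207931 to 25320267 counts. Levels are given in CPM, the counts divided by the library total and by edgeR's TMM factor. Genes listed at 0 numbered 1436 in the first QxG library and 31 to 338 in each of the others. Across genes, log2 CPM of that library correlated with the other QxG fruits at 0.927 and 0.923, the lowest values between fruits of any genotype. In Q the third fruit gave 0.946 and 0.948, and the remaining pair 0.983. The identifiers are not paired with gene names in the files, and none of them stands in the RefSeq table used here, so members are given by identifier and without a function. The labelled tissue was not checked against marker genes for the same reason. Fewer cells of a type and less RNA per cell cannot be told apart in such bulk samples.

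All 50 members were tested, as no gene was removed for low counts: every gene of the deposited table was above 0.5 CPM in at least 3 libraries. The range of identifiers from the first to the last member has 71 numbers ending in 0, of which 48 are in the table, and the other 2 members have numbers between these. Mean levels over the 12 libraries ran from 0.503 to 411 CPM with a median of 22.5 CPM, against a median of 15.6 CPM over all genes. The most abundant members were Solyc08g077980, Solyc08g077460 and Solyc08g077500. Solyc08g077980 averaged 612 ± 265 CPM in QxG, 290 ± 88.3 in GxQ, 388 ± 114 in Q and 356 ± 65.5 in G (SD, n = 3 each).

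**Figure D1:**
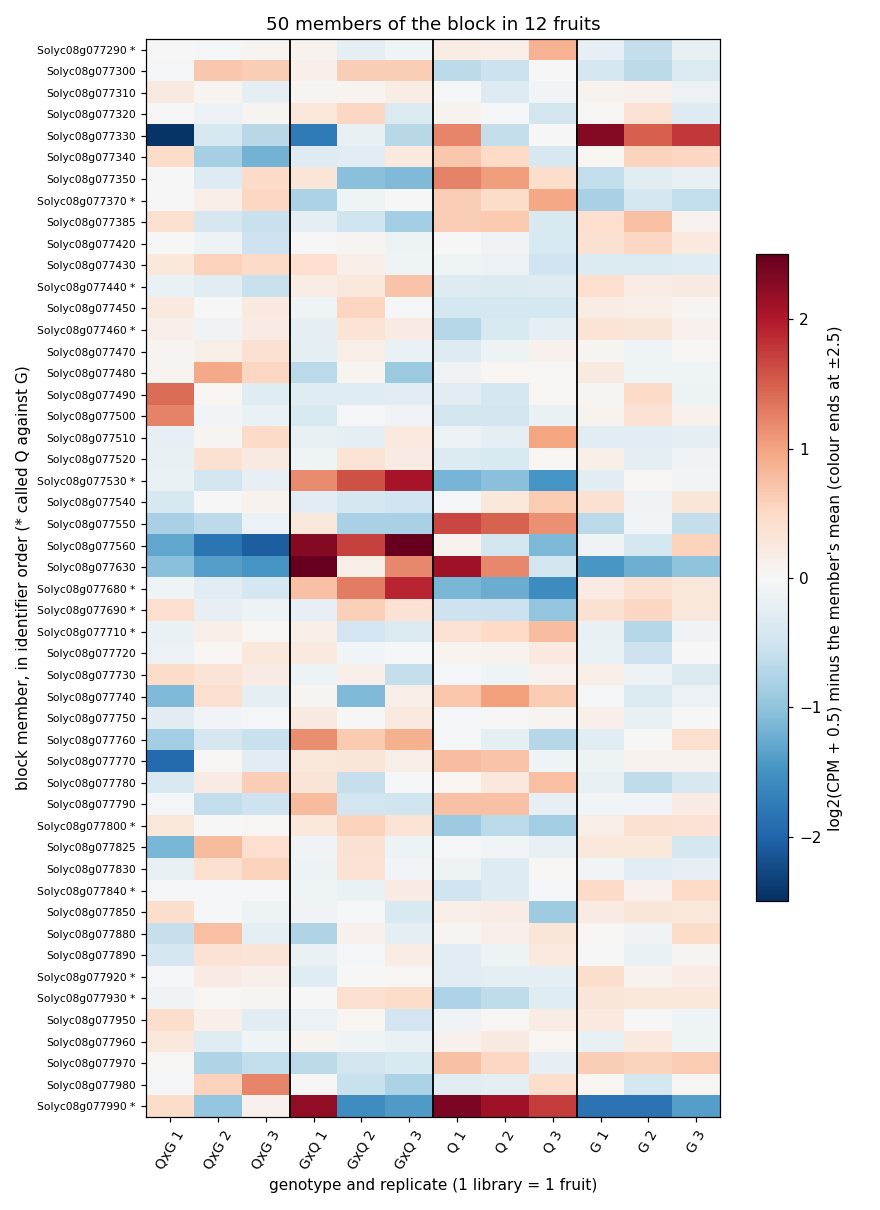
Level of each of the 50 members (rows, in identifier order) in each of the 12 fruits (columns), as log2(CPM + 0.5) minus the member's own mean over the fruits; red is higher, blue lower, and the colour scale ends at ±2.5. The strong colours sit in a few rows, among them Solyc08g077530, Solyc08g077560 and Solyc08g077680, which are red in the GxQ fruits.

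In the contrast that chose the block, 13 of the 50 members (26%) were past an adjusted p of 0.05 in edgeR's quasi-likelihood test, against 7.31% of all genes, and nothing is read from that excess. Of the 13, 4 were higher in Q, where the background is 4.51%, and 9 were lower in Q, where it is 2.81%. With library totals in place of TMM factors the split was 5 higher and 4 lower, as the median of all genes then moved to 0.20 on the log2 scale. All called genes then split into 1173 higher and 254 lower. Most differences were small: the median fold was 1.81, 7 of the 13 were under 2-fold and 3 were over 3-fold. The median log2 fold change over all 50 members was -0.04, and over all genes 0.01. The window of 50 genes just before the block held 4 called genes and the window just after it 3.

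The called members were spread over the block, with 5 among its first 25 genes and 8 among its last 25. Neighbours were called together at Solyc08g077680, Solyc08g077690 and Solyc08g077710, and again at Solyc08g077920 and Solyc08g077930, and the other 8 stood alone between uncalled members. The edges of the block are called genes. Just inside the lower edge, the log2 fold change of Q over G was 0.78 in Solyc08g077290, and just outside it 0.20 in Solyc08g077280. Just inside the upper edge it was 6.42 in Solyc08g077990, and just outside it 0.30 in Solyc08g078000. Solyc08g077280 averaged 27.7 ± 3.88 CPM in QxG, 15.3 ± 1.51 in GxQ, 23.6 ± 11.6 in Q and 20.5 ± 3.88 in G. Solyc08g078000 averaged 15.1 ± 7.00 CPM in QxG, 14.98 ± 2.45 in GxQ, 17.7 ± 1.79 in Q and 14.3 ± 3.26 in G. For both outer genes the ranges of Q and G overlap.

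**Figure D2:**
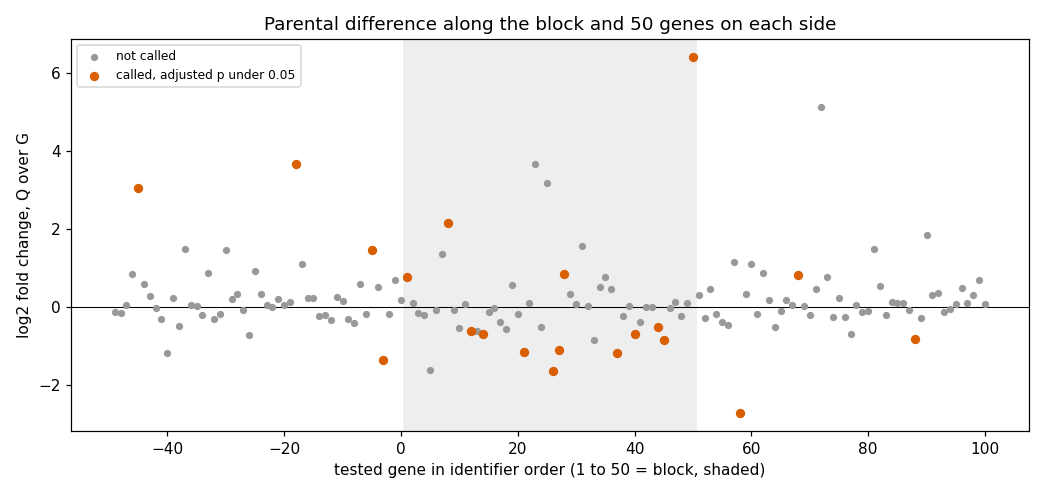
Log2 fold change of Q over G for the 50 block members (shaded, 1 to 50) and for 50 measured genes on each side, in identifier order; orange points passed an adjusted p of 0.05 and grey points did not. The block holds 13 orange points, 9 of them below 0, against 4 before it and 3 after it.

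Among called members lower in Q, the largest fold was that of Solyc08g077680. It stood at 41.9, 37.0 and 33.1 CPM in QxG, 74.8, 110.4 and 169.7 in GxQ, 20.3, 18.8 and 14.8 in Q, and 52.2, 59.1 and 54.8 in G. The 4 genotypes do not overlap: GxQ is highest, then G, then QxG, and Q is lowest. Its log2 fold change of Q over G was -1.62. Solyc08g077530, which lies 5 measured genes before it, was also lowest in Q. It stood at 33.4, 27.3 and 32.5 CPM in QxG, 85.6, 115 and 157.6 in GxQ, 16.6, 17.9 and 13.2 in Q, and 30.9, 39.1 and 35.7 in G. Here the fruits of QxG overlap those of G, and GxQ again lies above all others.

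Solyc08g077800 had small spreads in all genotypes. Its levels were 20.7, 17.1 and 17.6 CPM in QxG, 20.5, 25.5 and 21.6 in GxQ, 8.81, 10.4 and 9.07 in Q, and 19.0, 22.2 and 21.97 in G. The Q fruits stand apart below all 9 others. Solyc08g077690, next to Solyc08g077680, averaged 26.4 ± 6.75 CPM in QxG, 31.0 ± 8.41 in GxQ, 15.8 ± 2.85 in Q and 33.5 ± 2.93 in G (SD, n = 3 each). With TMM factors its Q fruits were also below all the others. Its call was lost with library totals (log2 fold change -0.86, edgeR adjusted p = 0.062).

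The remaining called members lower in Q differed by less than 2-fold. Solyc08g077930 averaged 57.8 ± 3.33 CPM in QxG, 70.3 ± 11.8 in GxQ, 38.6 ± 6.65 in Q and 69.2 ± 1.56 in G. Solyc08g077460, one of the most abundant members, averaged 282 ± 28.7 CPM in QxG, 290 ± 56.8 in GxQ, 198 ± 33.2 in Q and 318 ± 25.6 in G. In both, the Q fruits lay below all G fruits, and in Solyc08g077930 also below all hybrid fruits. Solyc08g077920 averaged 49.7 ± 4.31 CPM in QxG, 43.9 ± 5.59 in GxQ, 38.7 ± 0.494 in Q and 55.1 ± 7.09 in G. Solyc08g077840 averaged 31.5 ± 0.214 CPM in QxG, 32.2 ± 4.73 in GxQ, 26.6 ± 4.27 in Q and 42.3 ± 6.08 in G. With TMM factors, Q lay below all G and all QxG fruits in both. In Solyc08g077840 it was just below, at 31.2 CPM in the highest Q fruit and 31.3 CPM in the lowest QxG fruit. Both calls were lost with library totals (edgeR adjusted p = 0.196 for Solyc08g077920 and 0.0732 for Solyc08g077840). The calls of Solyc08g077460 and Solyc08g077440 between Q and G were lost with library totals too (edgeR adjusted p = 0.0635 and 0.183). Solyc08g077440 averaged 98.6 ± 13.2 CPM in QxG, 163 ± 33.7 in GxQ, 98.1 ± 0.664 in Q and 149 ± 13.3 in G, so that it formed a low pair of genotypes, QxG and Q, and a high pair, GxQ and G.

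Among members higher in Q, Solyc08g077990 had the largest difference, on few reads. Its counts were 46, 7 and 24 in QxG, 154, 2 and 3 in GxQ, 220, 180 and 101 in Q, and 0, 0 and 5 in G. Read as levels, these are 1.98, 0.423 and 1.42 CPM in QxG, 7.87, 0.109 and 0.170 in GxQ, 8.69, 7.33 and 5.55 in Q, and 0, 0 and 0.196 in G. The fitted log2 fold change of 6.42 rests on the 5 reads of 1 G fruit. The first GxQ fruit stood within the range of Q, and the other GxQ fruits within that of G. Solyc08g077370 was also low, at 1.05 ± 0.282 CPM in QxG, 0.587 ± 0.289 in GxQ, 1.61 ± 0.378 in Q and 0.356 ± 0.113 in G.

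The other called members higher in Q were abundant enough for a firmer level. Solyc08g077710 averaged 66.2 ± 7.80 CPM in QxG, 56.6 ± 13.6 in GxQ, 95.8 ± 14.4 in Q and 52.8 ± 11.7 in G. Its Q fruits lay above all 9 others, and GxQ and G overlapped. Solyc08g077290 averaged 19.1 ± 0.754 CPM in QxG, 18.1 ± 2.1 in GxQ, 26.1 ± 7.79 in Q and 15.2 ± 2.28 in G. Its level in Q leans on the third fruit, at 35.1 CPM beside 21.7 and 21.5 CPM.

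**Figure D3:**
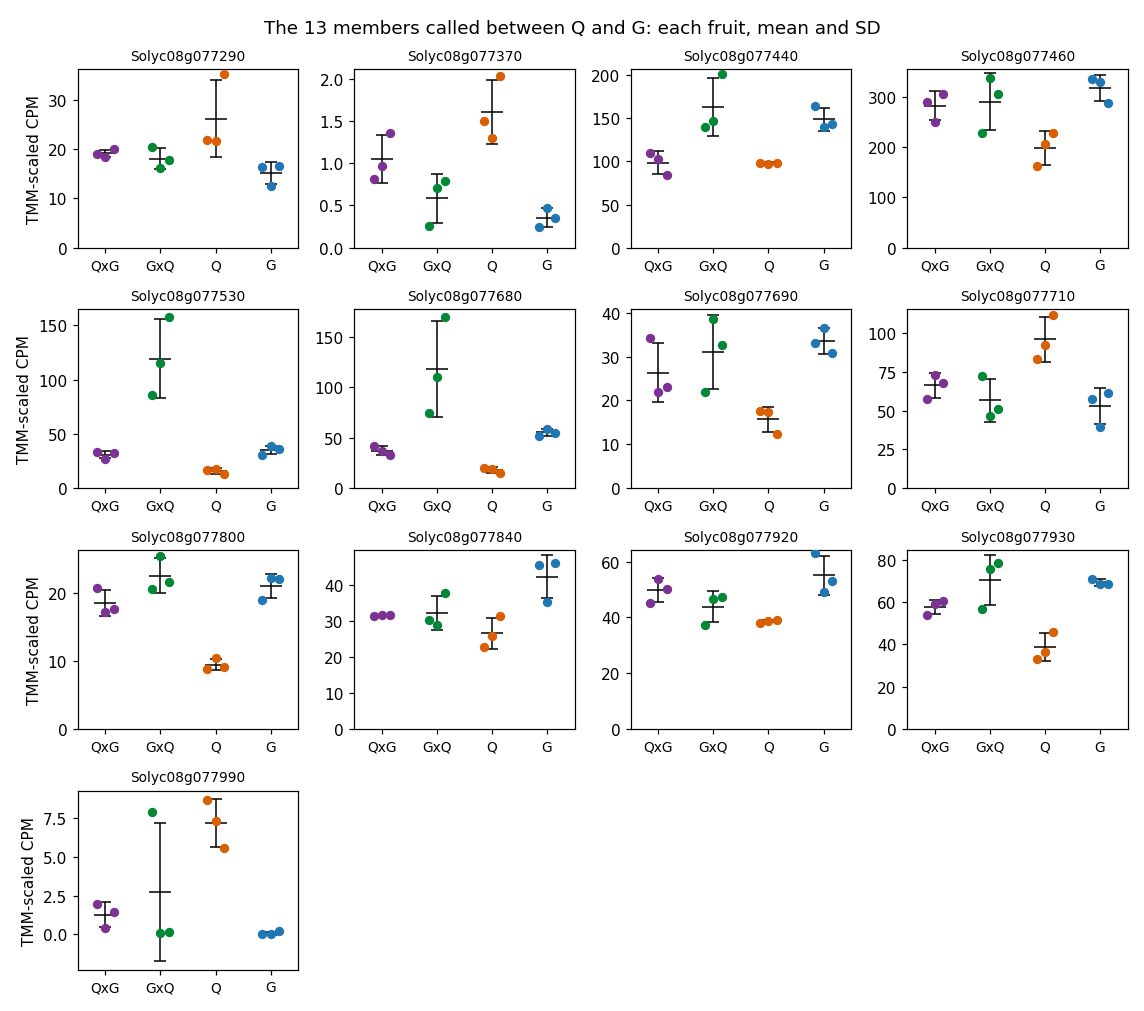
TMM-scaled CPM of the 13 members called between Q and G, 1 panel each; points are the 3 fruits of each genotype, horizontal lines are means and bars are SD. In every panel the Q and G fruits do not overlap, and the 3 QxG fruits of Solyc08g077680 lie between the parents while those of GxQ lie above both.

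The number of calls in the parents fell when any single parental fruit was left out. Called members numbered 5 without the first Q fruit, 3 without the second and 10 without the third. They numbered 4 without the first G fruit, 5 without the second and 4 without the third. The share of all genes called is not given here for these fits. That share moves between fits, and was 12.3% without the first QxG fruit, against 7.31% in all libraries. The counts are thus not read as a trait of the block. Beyond the 13, another 11 members had Q and G fruits that did not overlap, so that 24 of 50 (48%) were separated, against 38.4% of all genes. Some of these had large folds with wide spreads. Solyc08g077630 stood at 11.3, 5.74 and 1.48 CPM in the Q fruits, against 0.490, 0.673 and 0.860 CPM in the G fruits. Solyc08g077330 was 3.07-fold lower in Q than in G (edgeR adjusted p = 0.273). Solyc08g077550 had 58, 48 and 26 counts in Q and 1, 5 and 2 in G. Outside Q only the first GxQ fruit of Solyc08g077550, at 0.562 CPM, was above 0.5 CPM, so this member is in the table through Q. Solyc08g077550 was chosen after its values were seen.

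The hybrids stood at different places relative to the parents. For all 13 called members the QxG mean lay between the parental means, in 10 nearer to G and in 3 nearer to Q. Of their 39 QxG fruit values, 28 fell in the gap between the ranges of Q and G, 9 in the range of G, 1 in that of Q and 1 below both. The GxQ mean lay between the parental means for 8 of the 13, 6 nearer to G and 2 nearer to Q, and above both for 5. Among these 5, all 3 GxQ fruits lay above both parents in Solyc08g077530 and Solyc08g077680. In Solyc08g077440, Solyc08g077800 and Solyc08g077930 only 1, 1 and 2 of them did. Of the 39 GxQ fruit values, 9 fell in the gap, 13 in the range of G, 4 in that of Q, 12 above both parents and 1 below. As a share of the distance from G to Q, the median position was 36.1% in QxG and 13.9% in GxQ. Summed over the 9 members lower in Q, the level was 660, 601 and 638 CPM in the QxG fruits, 694, 925 and 1052 in GxQ, 418, 468 and 491.5 in Q, and 814, 779 and 742 in G. All QxG sums lay between those of the parents, while the GxQ sums ran from below the G sums to above them. The gap exists because these members were chosen for it, so the shares are a description.

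Single members show the range of positions. For Solyc08g077680 QxG was 48.2% of the way from G to Q, and for Solyc08g077370 55.3%. For Solyc08g077440 QxG was 98.9% of the way, at the level of Q. Its GxQ mean was above that of G, with overlapping fruits. Solyc08g077840 was 68.7% of the way in QxG and 64.3% in GxQ. Solyc08g077710 was 31.1% of the way in QxG and 8.84% in GxQ.

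The 37 members not called between the parents had hybrid means on every side of the parental means. QxG was above both parents in 15, below both in 16 and between them in 6, and GxQ in 13, 15 and 9. With parental means close together, a mean outside them need not differ from them beyond the spread of the fruits.

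Between the reciprocal hybrids, whose difference the choice did not use, 7 of the 50 members (14%) passed the edgeR quasi-likelihood test, against 10.1% of all genes. The hybrid fruits did enter the estimate of spread in the test of Q against G, as the fit used all libraries. QxG was higher in 1 and lower in 6, beside backgrounds of 2.66% and 7.49%. A share this near the background is no result about the block as a whole. The median log2 fold change of the members was 0.01, and -0.02 over all genes, and 11 of 50 members (22%) had hybrid fruits that did not overlap, against 26.5% of all genes. Of the members that passed, 4 of the 6 lower members, Solyc08g077530, Solyc08g077560, Solyc08g077630 and Solyc08g077680, stand at positions 21, 24, 25 and 26 of the block. These positions count measured genes only. The largest jumps in identifier number within the block lie here, 70 after Solyc08g077560 and 50 after Solyc08g077630. The windows of 50 genes before and after the block held 9 and 6 genes called in this contrast.

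Solyc08g077560 had the smallest adjusted p of the members in this contrast. It stood at 27.3, 18.9 and 15.8 CPM in QxG, 336, 224 and 427 in GxQ, 72.3, 49.4 and 31.0 in Q, and 64.3, 49.8 and 101.6 in G. The QxG fruits are below all others and the GxQ fruits above all others, while Q and G overlap. The level was 15.9-fold lower in QxG than in GxQ (log2 fold change -3.99, SE 0.397, edgeR adjusted p = 0.00019). It was past the threshold in all 21 alternatives, with adjusted p up to 0.0025.

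Solyc08g077530 and Solyc08g077680, whose fruits are given above, were 3.84-fold and 3.17-fold lower in QxG than in GxQ. Their log2 fold changes were -1.94 (SE 0.214) and -1.66 (SE 0.248), with edgeR adjusted p = 0.000307 and 0.00135. Both were past the threshold in all 21 alternatives, with adjusted p up to 0.00446 and 0.0278. Solyc08g077630 stood at 0.819, 0.544 and 0.475 CPM in QxG and 27.9, 2.52 and 5.77 in GxQ. Its log2 fold change was -4.27 (SE 0.925, edgeR adjusted p = 0.0118), and -2.73 without the first GxQ fruit, which held the highest of these values. Without the third QxG fruit the call was lost (adjusted p = 0.0534).

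The rest of the called members differed less or had few reads. Solyc08g077440 was 1.65-fold lower in QxG than in GxQ (adjusted p = 0.0143), and Solyc08g077480 was 2.02-fold higher, at 63.0 ± 19.0 CPM in QxG against 31.1 ± 11.8 in GxQ (SD, n = 3 each; edgeR adjusted p = 0.0281). Solyc08g077760 had 0, 3 and 2 counts in QxG and 30, 17 and 21 in GxQ, with an edgeR adjusted p of 0.0298. The 0 stands in the first QxG library. Without that library, Solyc08g077760 was still called (adjusted p = 0.045). All 3 lost the call without the third QxG fruit (adjusted p = 0.078, 0.0595 and 0.078) and without the third GxQ fruit (0.0764, 0.0934 and 0.0743). Solyc08g077480 also lost it without the second QxG fruit (0.0806) or the first GxQ fruit (0.0975), and Solyc08g077760 without the first GxQ fruit (0.0795) or the second Q fruit (0.0511). In Solyc08g077760 the fit with paired replicate numbers gave 0.0589. Outside GxQ only the third G fruit of this member, at 0.704 CPM, was above 0.5 CPM. The member is thus in the table through its GxQ fruits, and its call supports nothing further. Without the third QxG fruit, and likewise without the third GxQ fruit, 4 members were called in place of 7. The share of all genes called in these fits is not given here.

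**Figure D4:**
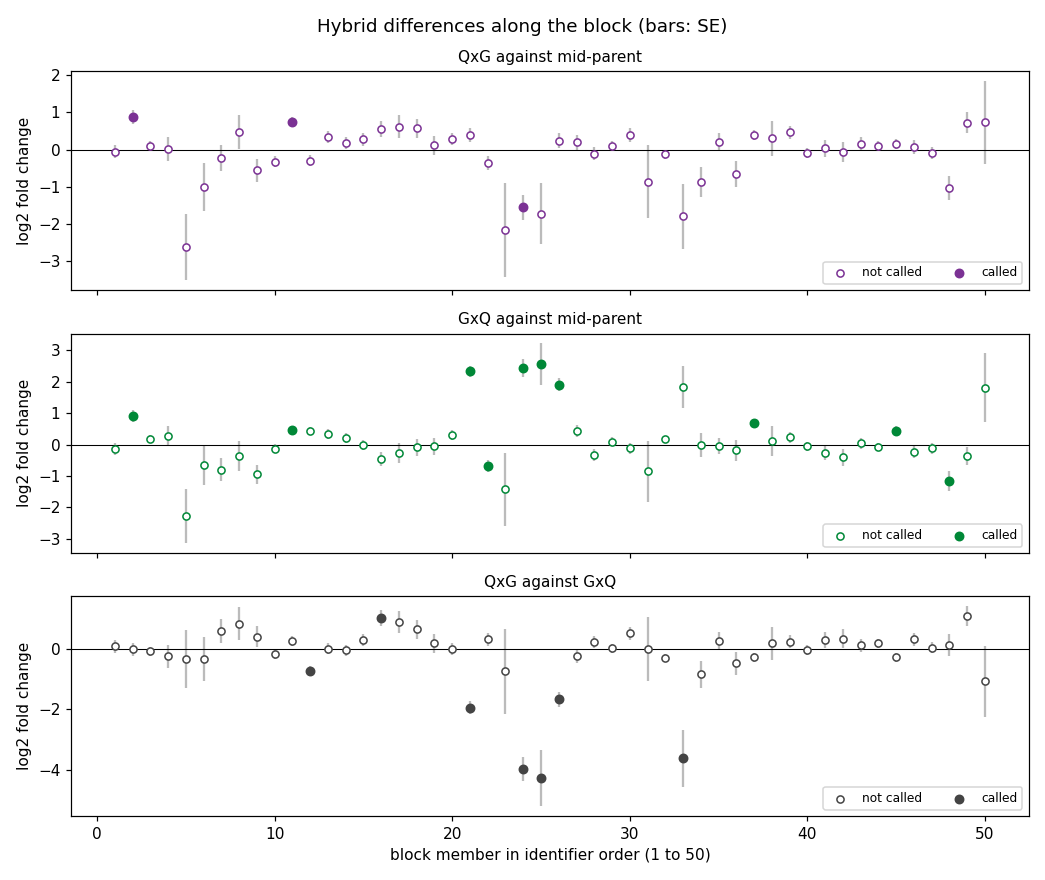
Log2 fold change with SE for each block member in identifier order (1 to 50), in QxG against the mid-parent (top), GxQ against the mid-parent (middle) and QxG against GxQ (bottom); filled points passed an adjusted p of 0.05. Members 21, 24, 25 and 26 are raised in GxQ (middle) and low in QxG relative to GxQ (bottom).

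The hybrids were also set against the mid-parent, the mean of the fitted log levels of Q and G. This contrast uses the same parental fruits as the choice of the block but not their difference. On a log scale the mid-parent lies below the arithmetic mean of the parents, most of all where they differ widely. For both hybrids together, 8 of 50 members (16%) passed the edgeR test, against 11.4% of all genes. Of these, 5 were higher and 3 lower, beside backgrounds of 5.3% and 6.13%. QxG alone differed from the mid-parent in 3 members (6%), against 8.51% of genes, with 2 higher and 1 lower beside 3.37% and 5.14%. GxQ alone differed in 10 members (20%), against 15.8% of genes, with 8 higher and 2 lower beside 9.47% and 6.28%. The median log2 fold change of the 50 members was 0.08 for both hybrids, 0.10 for QxG and -0.05 for GxQ, and over all genes -0.03, -0.05 and -0.01. All of these shares of called members are near their backgrounds, and the windows before and after the block held 3 and 7 genes called for both hybrids. With library totals in place of TMM factors the members split into 3 higher and 3 lower for both hybrids. For QxG the split was 1 and 1, and for GxQ 6 and 2. All called genes then split into 448 higher and 1791 lower for both hybrids, 332 and 1479 for QxG, and 976 and 1330 for GxQ. Single fruits moved the counts: both hybrids had 5 called members without the first Q or the third G fruit. QxG had 7 without the first QxG fruit and 1 without the second or the third. GxQ had 6 without the third GxQ fruit, the second Q fruit, or the second or the third G fruit, and 5 without the first G fruit. Shares of all genes called in these fits are not given here, so the moves are not read as a trait of the block. The hybrid contrasts share the parental libraries, so their counts are not independent of each other.

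Solyc08g077300 and Solyc08g077430, which did not pass in Q against G, rose in both hybrids. Solyc08g077300 stood at 109, 176.5 and 170.4 CPM in QxG, 121, 170.5 and 169 in GxQ, 70.2, 76.4 and 109.9 in Q, and 83.0, 69.8 and 86.5 in G. Only the third Q fruit, at 109.9 CPM, reached the lowest hybrid fruit. The log2 fold change against the mid-parent was 0.88 in QxG (SE 0.191, adjusted p = 0.0188) and 0.89 in GxQ (SE 0.191, adjusted p = 0.0101). For both hybrids together it was 0.89 (adjusted p = 0.00682, and up to 0.0224 in the 19 alternatives). Alone, QxG lost the call without the second or the third QxG fruit (0.0589 and 0.083), and GxQ without the third GxQ fruit (0.052).

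Solyc08g077430 stood at 104.6, 130.1 and 123 CPM in QxG, 116.5, 98.1 and 81.7 in GxQ, 80.7, 78.5 and 61.5 in Q, and 69.4, 67.7 and 70.7 in G. It was the 1 member of the block whose 6 hybrid fruits did not overlap the 6 parental fruits, a pattern of 4.1% of all genes. With library totals in place of TMM factors they did overlap, at 77.0 to 125 CPM in the hybrids and 58.8 to 99.8 in the parents. Its log2 fold change for both hybrids was 0.60 (SE 0.113, adjusted p = 0.00779), and the call was lost with library totals in place of TMM factors (0.45, adjusted p = 0.0716). In QxG alone it was 0.74 (adjusted p = 0.00967), a call also lost with library totals (0.54, adjusted p = 0.0769). In GxQ alone it was 0.47 (adjusted p = 0.0366), a call lost in 9 of 19 alternatives, among them without the first GxQ fruit (0.33, adjusted p = 0.165).

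Solyc08g077530 and Solyc08g077680 also passed for both hybrids together, but the hybrids differed. In GxQ they rose 5.04-fold and 3.75-fold over the mid-parent (adjusted p = 3.17e-05 and 0.000353), past the threshold in all 19 alternatives. In QxG their log2 fold changes were 0.39 and 0.24 (adjusted p = 0.188 and 0.492). Solyc08g077560 moved in opposite directions: it rose by 2.44 on the log2 scale in GxQ (SE 0.292, adjusted p = 0.000863) and fell by 1.55 in QxG (SE 0.331, adjusted p = 0.018). The fall in QxG lost its call without the second or the third QxG fruit (adjusted p up to 0.0856), and the rise in GxQ was past the threshold in all 19 alternatives. Solyc08g077630 rose in GxQ by 2.55 (adjusted p = 0.0242), which was 1.01 without the first GxQ fruit (adjusted p = 0.295). That call was also lost without the first or the second G fruit.

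Solyc08g077800 and Solyc08g077930, both lower in Q than in G, rose in GxQ by 0.68 and 0.44 on the log2 scale (adjusted p = 0.00662 and 0.0407). GxQ overlapped G in Solyc08g077800, and in Solyc08g077930 1 GxQ fruit lay below the G fruits and the other two above them. The call for Solyc08g077930 was lost in 10 of 19 alternatives, and that for Solyc08g077800 in none. For both hybrids together Solyc08g077800 rose by 0.53 (SE 0.111, adjusted p = 0.0116), a call lost with library totals (0.38, adjusted p = 0.0786).

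Members below the mid-parent had low or moderate levels. Solyc08g077970 averaged 2.07 ± 0.791 CPM in QxG, 1.90 ± 0.237 in GxQ, 3.94 ± 1.38 in Q and 4.62 ± 0.166 in G (SD, n = 3 each). It fell in both hybrids together by 1.10 on the log2 scale (SE 0.256, adjusted p = 0.0193), and in GxQ by 1.17 (adjusted p = 0.0318). The call for both hybrids was lost without the first Q, the second Q or the third G fruit (adjusted p up to 0.0541), and that for GxQ in 8 of 18 alternatives. Solyc08g077330 had 0, 26 and 20 counts in QxG, 6, 35 and 21 in GxQ, 148, 32 and 41 in Q, and 265, 107 and 224 in G. It fell in both hybrids together by 2.45 (SE 0.669, adjusted p = 0.0366), and without the first QxG library, where it is at 0, it fell by 2.13 (adjusted p = 0.019). The call was lost in 8 of 18 alternatives (adjusted p up to 0.0986), among them without the first Q fruit, which is the highest of its line. Solyc08g077540 fell by 0.52 (adjusted p = 0.0491), a call lost in 14 of 19 alternatives.

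**Figure D5:**
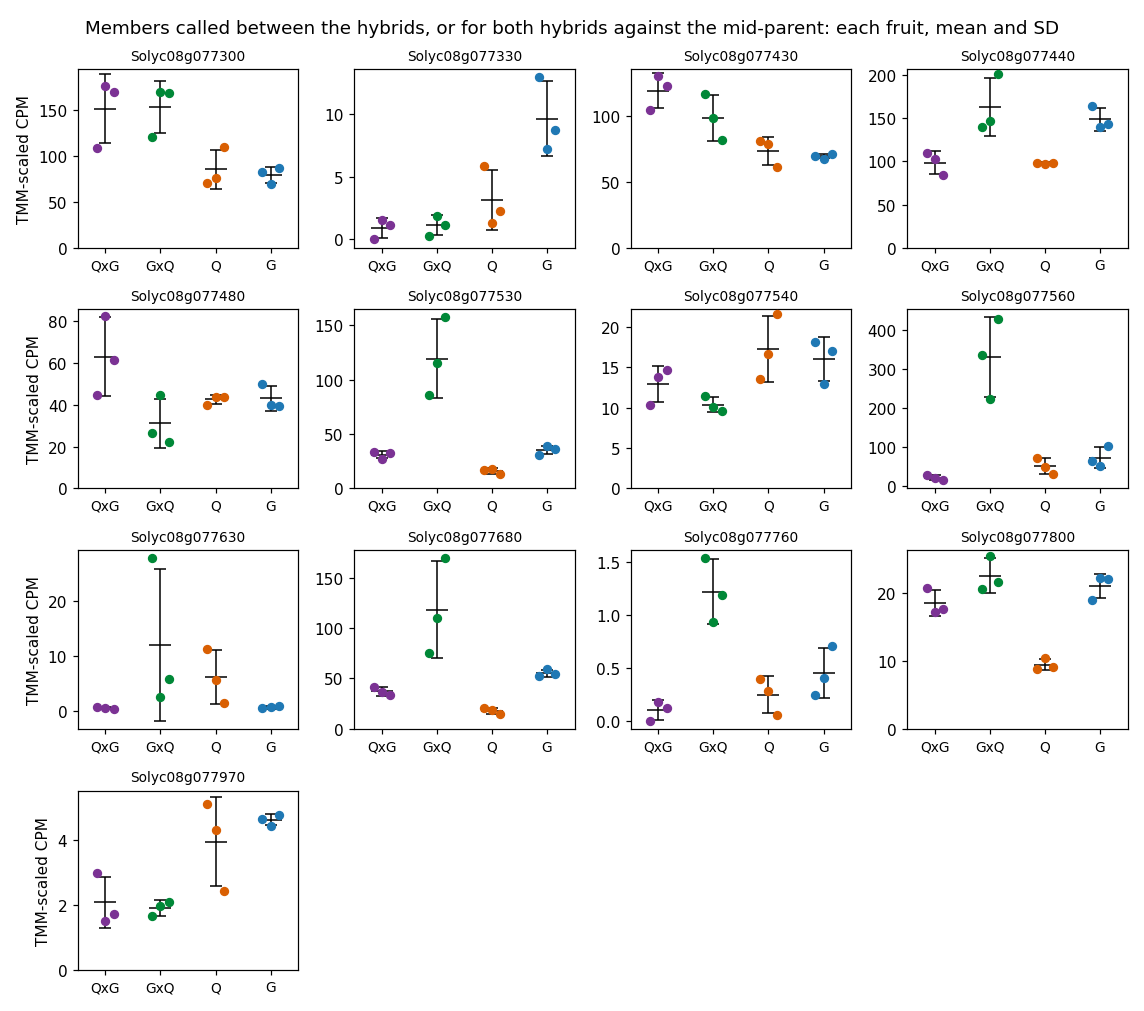
TMM-scaled CPM of the 13 members called between the hybrids or for both hybrids against the mid-parent, 1 panel each; points are fruits, horizontal lines means and bars SD. The GxQ fruits of Solyc08g077560 lie at 224 to 427 CPM, far above the 15.8 to 27.3 CPM of QxG, and all hybrid fruits of Solyc08g077430 lie above all parental fruits on this TMM scale, though not with library totals.

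In all, 22 members passed in at least 1 of the 5 contrasts and 28 in none. The 28 had mean levels of 0.588 to 411 CPM with a median of 19.4 CPM. Between QxG and GxQ their log2 fold changes ran from -0.84 in Solyc08g077770 to 1.08 in Solyc08g077980, and 21 of the 28 lay within 0.5 of 0. Solyc08g077980, the most abundant member, stood at 369, 570.4 and 895 CPM in QxG and at 389, 260.4 and 220 in GxQ, with overlapping fruits and an edgeR adjusted p of 0.0618. Against the mid-parent, both hybrids together ran from -1.80 in Solyc08g077550 to 0.35 in Solyc08g077830, with 23 of the 28 within 0.5 of 0. Solyc08g077550 had 0, 1 and 5 counts in QxG and 11, 0 and 0 in GxQ, so its value rests on few reads. Solyc08g077770 and Solyc08g077830 are named because they end these ranges.

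Over all 50 members the summed level was 2609 to 2970 CPM in the QxG fruits, 2707 to 2980 in GxQ, 2013 to 2421 in Q and 2347 to 2557 in G. With library totals in place of TMM factors it was 2481 to 2626 CPM in QxG, 2496 to 2904 in GxQ, 2315 to 2488 in Q and 2292 to 2516 in G. The hybrid fruits lay above all parental fruits with TMM factors and overlapped them with library totals. The sum was not tested, and abundant members such as Solyc08g077980 weigh most in it.

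Some members stood out in the libraries that stand apart, and a link between these was not tested. Members listed at 0 numbered 4 in the first QxG library, where 1436 of all 17887 genes were at 0. In each of the others they numbered 0 to 2. The neighbours Solyc08g077490 and Solyc08g077500 were both raised in that library alone. Solyc08g077490 stood at 54.4 CPM there, against 21.0 and 16.5 CPM in the other QxG fruits, and Solyc08g077500 at 481 CPM, against 193 and 182 CPM. All other genotypes stayed at 15.0 to 28.6 CPM and 148 to 263 CPM. Neither gene passed in the hybrid contrasts, and Solyc08g077490 was chosen after its values were seen. In the third Q library 5 members were under 0.5 times the mean of the other Q fruits and 1 was over 2 times that mean. The share over all genes was not taken, so these counts are not read as a trait of the block. Neighbouring genes can share reads where they are alike or overlap, which cannot be checked from the counts.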

How the data were processed

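For 12 libraries, 3 per genotype, the deposited values are raw counts by gene, in whole numbers with unequal library totals. Per the submitters' processing notes, FastQC, fastp 0.21, HISAT2 2.1.0, featureCounts of Subread, edgeR and R 4.0.3 were used. The sources used here do not state build, annotation or strand setting; reads of overlapping or antisense genes cannot be separated, and any difference in mapping between cultivated and wild alleles was not tested. Identifiers matching the RefSeq table numbered 0 of 41476 genes.

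Groups came from the titles, and 0 columns were left over. edgeR 4.0.16 (R 4.3.3) gave the quasi-likelihood F test across all 17887 genes, with TMM scaling (factors 0.884 to 1.24), filterByExpr (0 genes removed) and 1 mean per genotype over all libraries. Adjusted p are Benjamini-Hochberg values over all genes; SE values were derived as the size of the log2 fold change over the root of F. The script was tested on simulated data. Members were those between the first and last identifier of the block. The members and the rules for naming were chosen with earlier results of these data known. Named were all members called in any contrast, the edges of the block and the 3 most abundant members.

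Same-numbered QxG and GxQ libraries deviated together (r = 0.111, 0.281 and 0.185). No other pair of genotypes had 3 correlations over 0.1. The main fit did not use this pairing, so its p-values ignore it. Pairs entered only the alternative fits with a replicate block. Alternatives were RLE scaling, library totals, DESeq2 1.42.0, 2 other filters, each library left out, the replicate block, and fits of the parents or hybrids alone.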

Additional observations from a re-analysis of the deposited data

Results flagged for a closer look

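For 4 members the effect of at least 1 hybrid against the mid-parent passed and differed from that of the other hybrid in a direct test of QxG against GxQ, by log2 fold changes of -1.94 in Solyc08g077530, -3.99 in Solyc08g077560, -4.27 in Solyc08g077630 and -1.66 in Solyc08g077680. The edgeR adjusted p were 0.000307, 0.00019, 0.0118 and 0.00135, and in each all 3 QxG fruits were below all 3 GxQ fruits. These members were singled out by the same contrast that tests them, and both hybrids are set against the same parental fruits.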

How the results depend on the processing

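Numbers of called members moved with the libraries, and so did the share of all genes called. For Q against G that share was 7.31% in all libraries, 12.3% without the first QxG library (16 members) and 14.8% with DESeq2 (17 members). Shares for most other fits are not given here, so these moves are not read as traits of the block. Leaving out 1 library in turn gave 3 to 16 for Q against G (13 in all libraries), 4 to 8 for QxG against GxQ (7), 5 to 10 for both hybrids against the mid-parent (8), 1 to 7 for QxG (3) and 5 to 14 for GxQ (10). Requiring a mean of 5 CPM left 40 members and 8 called in Q against G. A fit of the hybrids alone called 4 in QxG against GxQ, and with the replicate block 5. DESeq2 called 6 in QxG against the mid-parent. Without the third Q and the first QxG library together, an alternative added after seeing the data, 17 were called in Q against G, 14 were called for both hybrids and 12 for QxG against the mid-parent. With pairing as a replicate block in all libraries the counts were 11, 6, 7, 3 and 11 in the order above; the block ended the calls of Solyc08g077440, Solyc08g077460 and Solyc08g077920 between Q and G, of Solyc08g077760 between the hybrids (adjusted p = 0.0589), and of Solyc08g077540 (adjusted p = 0.0636) and Solyc08g077330 (adjusted p = 0.0673) in both hybrids against the mid-parent. The fit of the hybrids alone lost Solyc08g077440, Solyc08g077480 and Solyc08g077760 without the block (adjusted p = 0.091, 0.102 and 0.0741), and with it Solyc08g077440 and Solyc08g077760 (0.13 and 0.141). No called member changed its direction in any alternative. With library totals the median of all genes moved to 0.20 in Q against G and to -0.18 in both hybrids against the mid-parent. Members then split into 3 higher and 3 lower for both hybrids, beside 448 and 1791 of all genes. Of all genes called between Q and G, 61.6% were higher in Q by TMM and 82.2% by library totals. Members under about 2 CPM rest on few reads, and 0 counts in the first QxG library are not read as absence.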
